A study of Mus musculus with 15 samples.

Results

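Oxidative phosphorylation is carried out by 5 protein complexes of the inner mitochondrial membrane, and the genes described here encode their subunits. They were chosen by name: protein-coding genes whose symbol begins with Ndufa, Ndufb, Ndufc, Ndufs, Ndufv, Sdh, Uqcr, Cox4 to Cox8, Atp5 or mt-, with at least 10 counts in at least 3 libraries. Of 25700 genes in the count table, 110 carried such a name and 99 passed the count threshold, 92 encoded in the nucleus and 7 on mitochondrial DNA. The 92 nuclear genes comprised 36 subunits of complex I, 4 of complex II, 8 of complex III, 14 of complex IV and 16 of complex V. The names also brought in 8 complex I assembly factors (Ndufaf genes), 4 complex II assembly factors (Sdhaf genes), the supercomplex factor Cox7a2l and the coupling factor Atp5s.

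As background, complexes I and II pass electrons from NADH and succinate to ubiquinone, complex III passes them to cytochrome c, and complex IV passes them to oxygen. Complexes I, III and IV pump protons, and complex V, the ATP synthase, uses the returning protons to make ATP. Mitochondrial DNA encodes core subunits of complexes I, III, IV and V and none of complex II, and it is transcribed as long RNAs that are cut at the tRNAs between the genes. In macrophages, IL-4 is known for an oxidative metabolism and inflammatory stimuli for glycolysis.

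RNA of mouse bone marrow-derived macrophages was sequenced in 15 libraries, with 3 libraries in each of 5 groups. Marrow cells of mice aged 8 to 10 weeks had been grown for 7 days in the macrophage growth factor M-CSF at 10 ng/ml. The groups were untreated controls, cells given 200 or 400 µM of heme-albumin (hemin bound to human serum albumin), and cells given 10 ng/ml of either IL-4 or IFN-γ. The labels call the IL-4 cells M2 and the IFN-γ cells M1, and they use heme-albumin for macrophages resembling those that have taken up red blood cells. The sources used here give neither the mouse strain, nor the time under treatment, nor whether controls received albumin. Nothing states that replicates came from separate animals or cultures, so the p-values below measure only the spread between these libraries.

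Total counts ran from 8427352 to 28587416 per library. Nuclear members held 0.643 to 0.938% of the counts and mitochondrially encoded members 0.350 to 0.869%. Hmox1, which encodes the heme-degrading enzyme heme oxygenase 1, stood at 934, 622 and 1045 CPM (counts per 1000000 counts of the library, scaled by TMM) in controls and rose to 26436 ± 2141 CPM (SD, n = 3) at 200 µM and 23500 ± 1791 CPM (SD, n = 3) at 400 µM. The summed level of 10 macrophage markers was 33331 to 39067 CPM in controls, 42244 to 55890 CPM with heme-albumin and 13377 to 27025 CPM with either cytokine. Their median log2 fold change against control was -0.07 at 200 µM, -0.26 at 400 µM, -0.47 with IL-4 and 0.20 with IFN-γ. With heme-albumin and with IFN-γ the median thus went the opposite way from the sum. Markers of erythroid cells summed to at most 1.31 CPM in any library, and markers of T and NK cells to at most 4.80 CPM. Of 8 T and NK markers 2 were tested. Both were called higher at 200 and 400 µM (median log2 fold change 2.64 and 3.62), 1 with IL-4 and 0 with IFN-γ. Neutrophil and precursor markers summed to 2.17 to 55.3 CPM over all libraries, and none of 5 tested was called against control. Stromal and endothelial markers summed to 6.05 to 26.1 CPM. Dendritic cell markers summed to 0.484 to 1.40 CPM in controls and 27.0 to 59.9 CPM with IFN-γ. Of these 7 markers 3 were tested, and with IFN-γ 1 was called higher and 1 lower (median log2 fold change -0.06). Osteoclast markers summed to 18.2 to 32.4 CPM in controls, 120 to 210 CPM with IL-4 and 46.8 to 243 CPM with IFN-γ. Megakaryocyte and platelet markers summed to 130 to 246 CPM in controls, 362 to 680 CPM with heme-albumin, 83.7 to 112 CPM with IL-4 and 13.4 to 35.1 CPM with IFN-γ. The part of these other lineages in the results below was not tested, and in bulk RNA fewer cells of a type and less RNA per cell cannot be told apart. Heme-albumin 400 replicate 2 and IFN-γ replicate 3 stood apart from their groups: a chi-square of the counts against either other replicate, divided by its degrees of freedom, gave 51.3 to 65.1 and 137 to 141, while pairs of controls gave 7.41 to 14.2.

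Of the 13 protein genes on mitochondrial DNA, 6 carried almost no counts. The counts of mt-Co2 and mt-Atp8 were 0 in all 15 libraries, and the highest count in any library was 2 for mt-Co3 and mt-Nd4l, 3 for mt-Atp6 and 11 for mt-Nd3. These genes lie next to each other between mt-Co1 and mt-Nd4. An almost identical copy of this stretch lies in the nuclear genome on chromosome 1, where the annotation divides it into pseudogenes. Of all 50-base stretches in the transcript, 100% of those of mt-Co2, 99.5% of those of mt-Atp6, 99.9% of those of mt-Co3, 98.0% of those of mt-Nd3 and 98.8% of those of mt-Nd4l also occur in another annotated transcript. For mt-Atp8 the share was 0, because the pseudogenes leave a gap at its place. The share was 62.2% for mt-Nd4, 51.1% for mt-Co1, 8.2% for mt-Nd2, 7.6% for mt-Nd5, and 0 for mt-Cytb, mt-Nd1 and mt-Nd6. The sources used here do not say how reads that match several places were counted. The copies' own counts were not analysed here. The 6 genes are not described further, and how reads from the shared stretches of mt-Co1 and mt-Nd4 entered their counts was not tested.

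**Figure D1:**
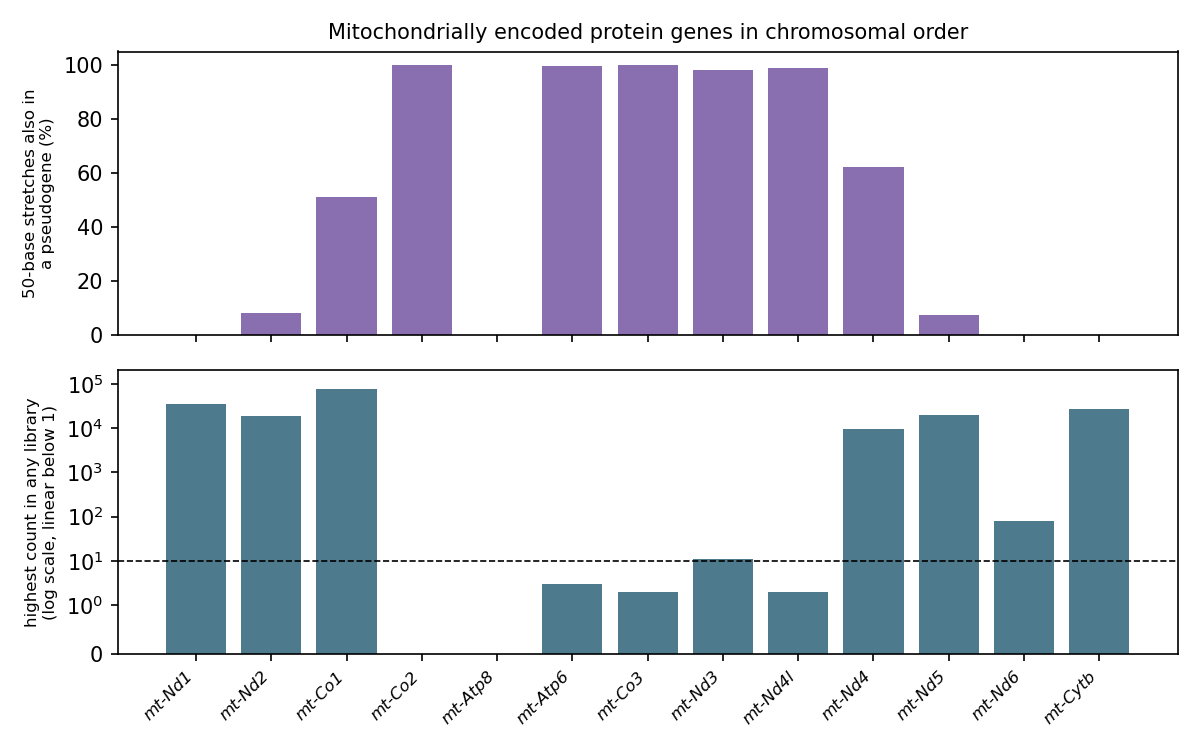
Upper panel: percent of each mitochondrial protein gene's 50-base stretches that also occur in an annotated pseudogene. Lower panel: highest count of the gene in any of 15 libraries on a log scale that is linear below 1, with the threshold of 10 counts as a dashed line. The 5 genes shared by 98.0 to 100% reached at most 11 counts, and mt-Atp8, at whose place the annotated pseudogenes leave a gap, had 0.

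The sequences show how closely the nuclear copies follow the genes. The first pair is the point in mt-Co1 (chrM:5328-6872, plus strand, GRCm38) where its copy Gm29216 (chr1:24615706-24616197, minus strand) begins, at base 1054 of the mt-Co1 transcript. The copy matches it at all but 6 of 492 bases, and capitals mark the positions that differ within the 60 bases shown.
mt-Co1: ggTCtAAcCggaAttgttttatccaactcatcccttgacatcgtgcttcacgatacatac
Gm29216: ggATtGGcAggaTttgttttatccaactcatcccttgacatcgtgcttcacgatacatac
The second pair is the start of mt-Nd3 (chrM:9459-9806, plus strand) and of its copy Gm28438 (chr1:24612775-24613119, minus strand), which differ at 1 of 345 bases, again in capitals.
mt-Nd3: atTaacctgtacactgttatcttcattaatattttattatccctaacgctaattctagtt
Gm28438: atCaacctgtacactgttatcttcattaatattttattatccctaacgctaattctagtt
Beyond those positions the letters shown are identical.

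The members differed widely in level. Per kilobase of annotated exon and averaged over the 5 groups, mt-Co1, the catalytic core of complex IV, stood at 2023 CPM per kb, mt-Nd1 at 998.7, mt-Cytb at 698.6, mt-Nd2 at 465.4, mt-Nd5 at 329.4 and mt-Nd4 at 204.3 CPM per kb. The exception was mt-Nd6, the protein gene on the opposite strand, at 5.79 CPM per kb. On this scale the 3 highest nuclear members were Cox6b1 (263 CPM per kb) and Cox6a1 (209.8 CPM per kb), both small subunits of complex IV, and Atp5b (197.6 CPM per kb), the catalytic beta subunit of ATP synthase. In controls their levels were 253 ± 18.0, 178 ± 14.6 and 185 ± 5.23 CPM per kb (SD, n = 3). The SD covers the libraries and not the choice of gene length, so which members rank highest is not settled. Atp5b has 4237 bases of annotated exon and a longest transcript of 1916, while Cox6a1 has 702 and 620. Cox4i1, at 181.6 CPM per kb, has 1550 and 765. The median nuclear subunit was at 31.2 CPM per kb in complex I, 52.2 in complex II, 71.6 in complex III, 78.6 in complex IV and 59.2 in complex V, and the median assembly factor at 4.84 CPM per kb for complex I and 5.16 for complex II. The lowest was Atp5l at 0.495 CPM per kb, with 6443 bases of annotated exon. Cox6b2, at 0.681 CPM per kb, had fewer counts in total (161 against 725). Of the stretches of Atp5l, 6.1% are shared with 17 pseudogenes, and their part in its level was not tested.

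IFN-γ lowered some mitochondrially encoded RNAs and left others near the control level. In controls 1 to 3, mt-Nd1, a core subunit of complex I, stood at 1094, 1016 and 833 CPM, against 602, 387 and 530 CPM with IFN-γ. All 3 IFN-γ libraries lay below all libraries of the other 4 groups. This was a log2 fold change of -0.95 ± 0.18 (SE; edgeR adjusted p = 0.000905). mt-Cytb, the cytochrome b of complex III, fell from 994, 799 and 638 CPM to 529, 249 and 406 CPM, a change of -1.04 ± 0.29 (adjusted p = 0.0112). Its groups did not overlap, but leaving out control 1 ended the call (adjusted p = 0.0513). mt-Nd2, also of complex I, fell from 524, 511 and 407 CPM to 343, 217 and 317 CPM, by -0.72 ± 0.18 (adjusted p = 0.0062). These were 3 of 7 mitochondrially encoded members called lower, where 19.5% of the 11883 genes tested were called lower, and 0 of 7 were called higher, where 24.1% of genes were. In either direction 43.7% of all genes were called. The column headers give libraries of the same replicate number the same date. Within replicates 1, 2 and 3, IFN-γ minus control was -0.86, -1.39 and -0.65 for mt-Nd1, -0.91, -1.68 and -0.65 for mt-Cytb and -0.61, -1.24 and -0.36 for mt-Nd2 on the log2 scale, negative in each and furthest from 0 in replicate 2. With 1 library left out, 2 or 3 of the 7 were lower (2 without control 1).

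The other 4 were not called with IFN-γ. mt-Nd4 stood at 324, 255 and 214 CPM in controls and 225, 116 and 194 CPM with IFN-γ (-0.57 ± 0.28, adjusted p = 0.119), and the groups overlapped. It passed the test when the replicate number was a block (adjusted p = 0.0484). mt-Nd5 stood at 604, 487 and 427 CPM in controls and 644, 266 and 490 CPM with IFN-γ (-0.12 ± 0.29, adjusted p = 0.771). mt-Co1 stood at 3245, 2778 and 2218 CPM in controls and 3888, 2261 and 3753 CPM with IFN-γ (0.26 ± 0.26, adjusted p = 0.435). For both genes IFN-γ replicate 2 was the low library and the others lay among or above the controls. mt-Nd6 had 1.29 to 2.78 CPM in controls and 1.72 to 4.69 CPM with IFN-γ. Of 7 members, IFN-γ replicate 2 was the lowest IFN-γ library in all but mt-Nd6, and this library also had the lowest mitochondrially encoded share of all 15 (0.350% of its counts).

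**Figure D2:**
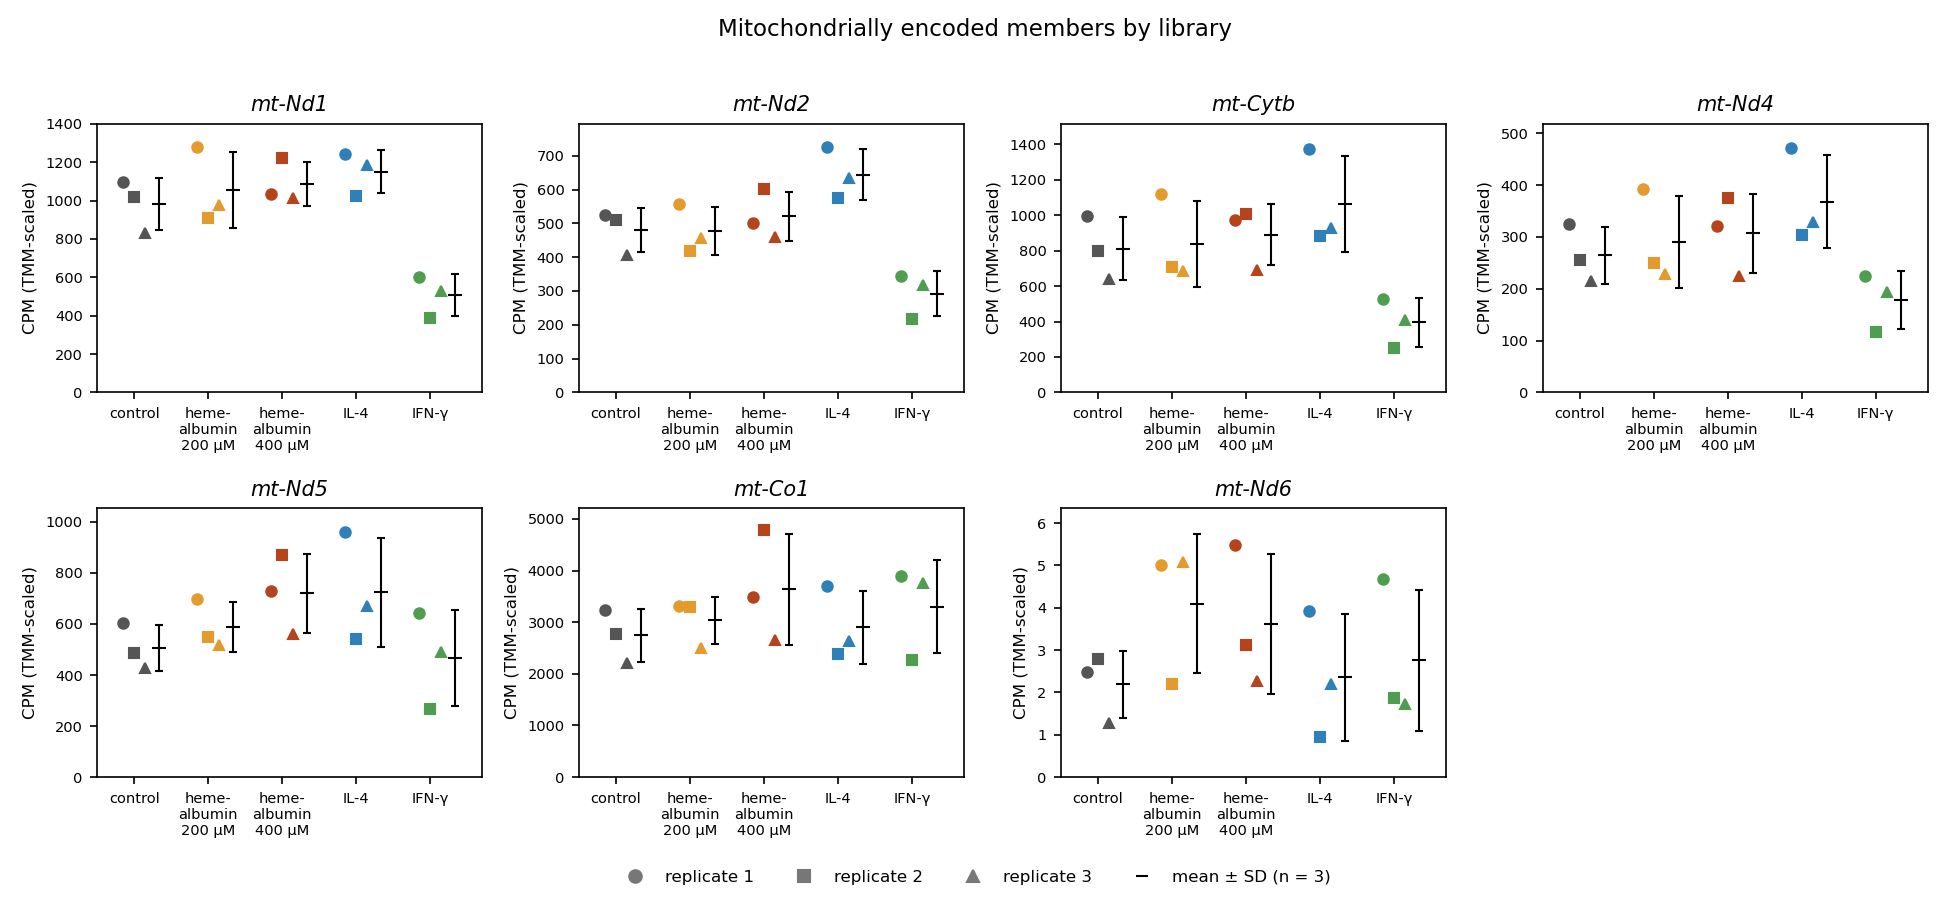
Level of each mitochondrially encoded member in CPM scaled by TMM, by group. Points are libraries (circle, square and triangle for replicates 1, 2 and 3) and bars are mean ± SD (n = 3). For mt-Nd1, mt-Nd2 and mt-Cytb every IFN-γ library lies below every control, while mt-Nd5 and mt-Co1 overlap the controls.

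Ratios within a library do not depend on its depth or scaling, and they showed the unequal change directly. The count of mt-Co1 was 3.27, 3.48 and 3.48 times that of mt-Cytb in controls 1 to 3 and 7.35, 9.09 and 9.25 times in the IFN-γ libraries. It was 2.69 to 2.83 times with IL-4, 2.96 to 4.64 times with heme-albumin 200 and 3.59 to 4.75 times with heme-albumin 400. The IFN-γ libraries thus lay above all 12 others and the IL-4 libraries below all others. The exact two-sided permutation test gave p = 0.1 for IFN-γ against control, IL-4 against control, IL-4 against IFN-γ and heme-albumin 400 against control. This is the smallest p that 3 against 3 libraries can give, and the ratio was chosen after the values were seen. The ratio of mt-Co1 to mt-Nd1 was 2.66 to 2.97 in controls and 5.84 to 7.08 with IFN-γ. mt-Co1 took 46.8 to 47.8% of the counts of the 7 genes in controls and 62.4 to 66.0% with IFN-γ. The gene mt-Nd5, of which 7.6% of stretches are shared with a pseudogene, had a ratio to mt-Cytb of 0.607 to 0.669 in controls and 1.07 to 1.22 with IFN-γ. Its IFN-γ libraries also lay above all others.

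**Figure D3:**
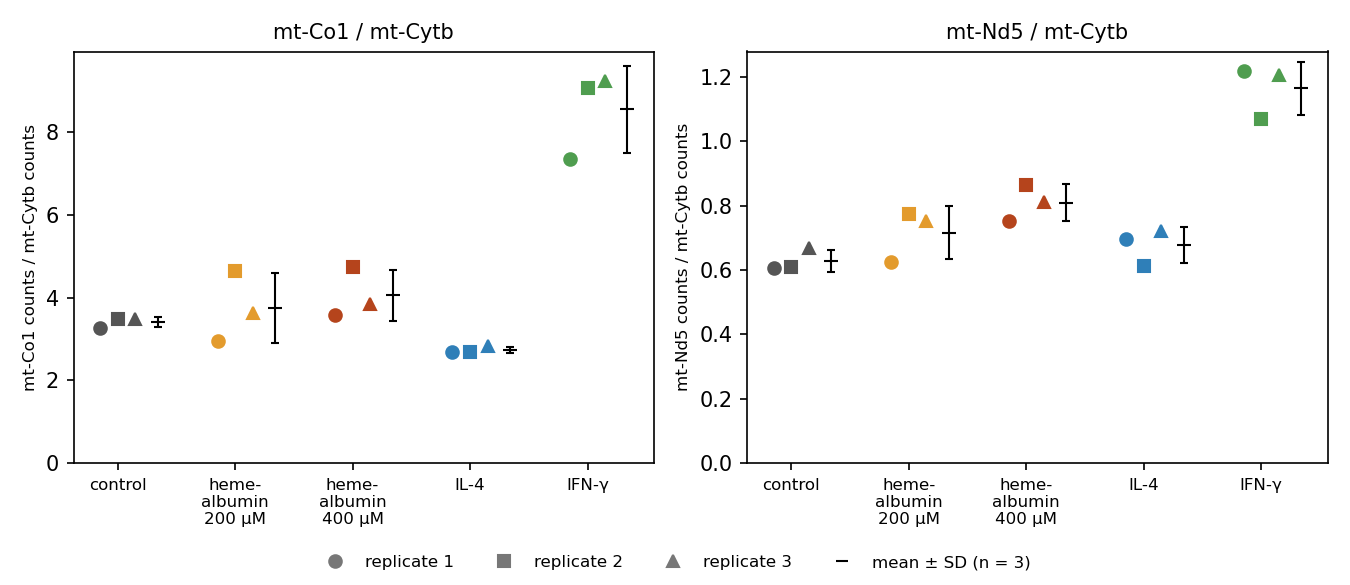
Ratio of counts within each library, mt-Co1 to mt-Cytb at left and mt-Nd5 to mt-Cytb at right, by group. Points are libraries and bars are mean ± SD (n = 3). The IFN-γ libraries lie at 7.35 to 9.25 and 1.07 to 1.22, above the libraries of the other 4 groups in both panels.

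Against this background the nuclear members moved in both directions with IFN-γ. Of 92, 18 were called higher and 3 lower, shares below those of all genes (24.1% higher, 19.5% lower), and the median change was 0.11 on the log2 scale against 0.051 over all genes. The split depended on the scaling. With upper-quartile factors, which shifted the median of all genes by -0.11, 10 members were higher and 10 lower and the nuclear median was -0.0045. The higher count was 11 without control 1 or control 3. The shares of all genes called higher and lower in these fits were not counted. By complex, the members called higher were 8 of 36 in complex I, 2 of 4 in complex II, 3 of 8 in complex III, 3 of 14 in complex IV and 0 of 16 in complex V.

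Complex II, the succinate dehydrogenase that also works in the citric acid cycle, split by subunit. Sdhb, which carries the iron-sulfur clusters, stood at 85.1, 84.0 and 85.9 CPM in controls and 122, 140 and 173 CPM with IFN-γ. All IFN-γ libraries lay above all 12 other libraries, and the gene rose by 0.77 ± 0.12 (edgeR adjusted p = 0.000203). Sdhd, a membrane anchor, rose from 127, 141 and 124 CPM to 163, 175 and 197 CPM, a change of 0.45 ± 0.09 (adjusted p = 0.00102). The other anchor, Sdhc, stood at 141 to 148 CPM in controls and 123 to 141 CPM with IFN-γ (-0.15 ± 0.08, adjusted p = 0.126). It was called lower with upper-quartile factors (adjusted p = 0.0187) and by DESeq2 (adjusted p = 0.0325). The flavoprotein Sdha stood at 242, 239 and 251 CPM in controls and 268, 257 and 276 CPM with IFN-γ (0.13 ± 0.08, adjusted p = 0.217).

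The supercomplex factor Cox7a2l (chr17:83501918-83517330, minus strand, GRCm38), which is known to join complexes III and IV, was the nuclear rise of smallest p with IFN-γ. It stood at 105, 127 and 112 CPM in controls and 169, 222 and 202 CPM with IFN-γ, a change of 0.79 ± 0.11 (edgeR adjusted p = 6.32e-05). The libraries of the other 3 groups lay between 101 and 118 CPM. The IFN-γ libraries were above all others. Of its stretches, 13.8% are shared with other transcripts. Ndufs3 (chr2:90894634-90904827, minus strand), a core subunit of complex I, rose from 40.2, 34.1 and 39.8 CPM to 54.5, 62.1 and 72.7 CPM. The change was 0.73 ± 0.12 (adjusted p = 0.000253). Its exons overlap those of the antisense gene Kbtbd4, and 17.9% of its stretches are shared with other genes.

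Ndufa4 (chr6:11900292-11907497, minus strand), named as a complex I subunit but now placed in complex IV, fell with IFN-γ and rose with heme-albumin. It stood at 126, 126 and 114 CPM in controls, 164, 165 and 181 CPM at 200 µM, 160, 182 and 185 CPM at 400 µM, 137, 131 and 132 CPM with IL-4, and 74.9, 67.7 and 68.3 CPM with IFN-γ. The IFN-γ libraries lay below, and the heme-albumin libraries above, those of all other groups. The changes were -0.79 ± 0.09 with IFN-γ (edgeR adjusted p = 9.78e-06), 0.48 ± 0.09 at 200 µM (adjusted p = 0.00126) and 0.53 ± 0.09 at 400 µM (adjusted p = 0.00061). With IL-4 the change was 0.13 ± 0.08 (adjusted p = 0.29). The paralog Ndufa4l2 had at most 1 count in any library.

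The largest fall among nuclear members with IFN-γ was that of Ndufaf7 (chr17:78937136-78948052, plus strand), a methyltransferase needed to assemble complex I. It stood at 16.8, 19.7 and 18.6 CPM in controls and 7.85, 9.70 and 4.89 CPM with IFN-γ, with no overlap, a change of -1.28 ± 0.19 (edgeR adjusted p = 0.000123). All libraries of the other 3 groups lay at 17.0 CPM or above. The coupling factor Atp5s fell by -0.49 ± 0.16 (adjusted p = 0.0216), a call that ended without control 3 (adjusted p = 0.0843), without IFN-γ replicate 1 (adjusted p = 0.0621) or with only the 6 libraries compared (adjusted p = 0.0684). Other rises were smaller: Cox8a of complex IV by 0.51 ± 0.10 (adjusted p = 0.00157) and Uqcr10 of complex III by 0.50 ± 0.14 (adjusted p = 0.0122). Ndufa13 of complex I rose by 0.61 ± 0.17 (adjusted p = 0.0118; 0.0537 without control 1) and Uqcrq of complex III by 0.65 ± 0.19 (adjusted p = 0.013; 0.0621 without IFN-γ replicate 2). Ndufs7 (adjusted p = 0.0449) lost its call without any 1 of the 3 controls, IFN-γ replicate 2 or replicate 3 (0.0708 to 0.154), and Ndufb9 (adjusted p = 0.0492) without any 1 of the 6 libraries (0.0601 to 0.175). Both calls were also lost under the replicate block (adjusted p = 0.0596 and 0.0545).

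**Figure D4:**
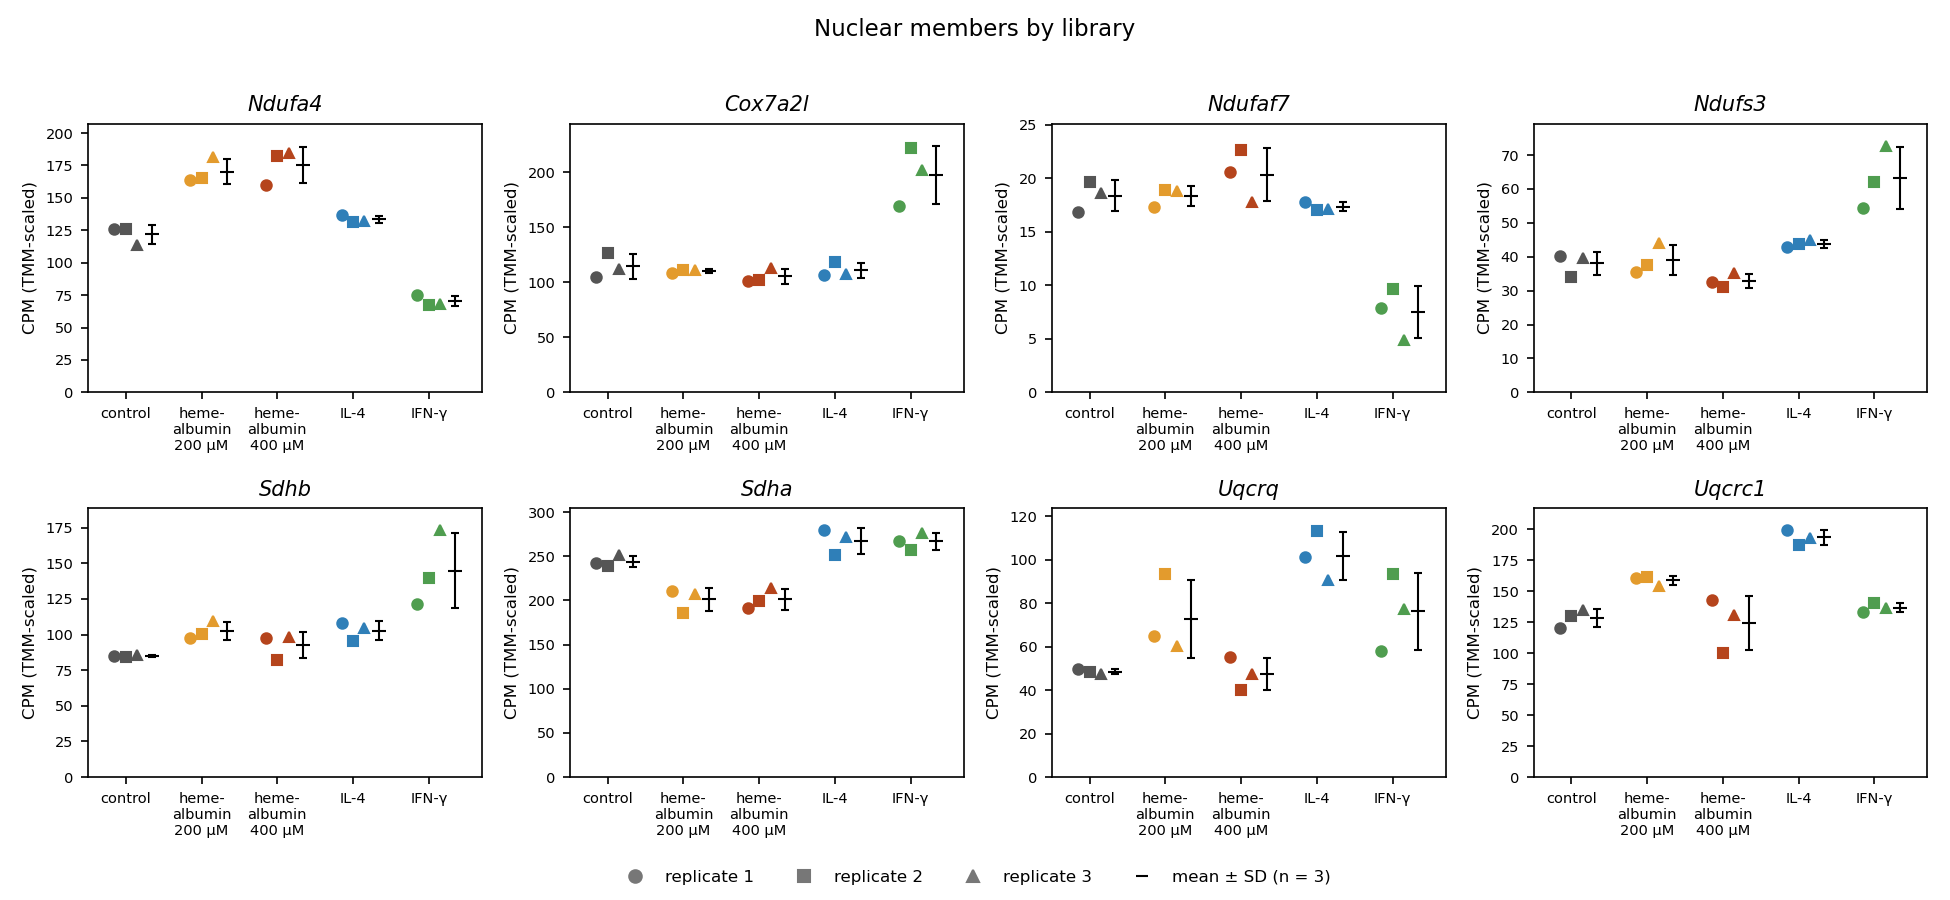
Level of 8 nuclear members in CPM scaled by TMM, by group. Points are libraries (circle, square and triangle for replicates 1, 2 and 3) and bars are mean ± SD (n = 3). IFN-γ libraries are lowest for Ndufa4 and Ndufaf7 and highest for Cox7a2l, Ndufs3 and Sdhb; heme-albumin libraries are lowest for Sdha, and IL-4 libraries are highest for Uqcrc1.

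With IL-4, nuclear members were called mainly in the upward direction. Of 92, 30 were called higher, against 14.9% of all genes, and 1 was called lower, against 12.0% of all genes. The median change of the 92 was 0.20, against -0.0004 over all genes, and 78 were positive. The count called higher was 9 to 18 when any 1 of the 6 libraries compared was left out (9 without control 3), while the median was between 0.14 and 0.21 in every alternative. The shares of all genes called higher with a library left out were not counted. Of the 5 complexes, complex III had the highest median, 0.41, with 4 of 8 subunits higher. In complex I 14 of 36 were higher and 1 lower, in complex IV 6 of 14 higher and in complex V 4 of 16 higher. None of the 4 subunits of complex II was called, where 26.8% of all genes were called in either direction.

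**Figure D5:**
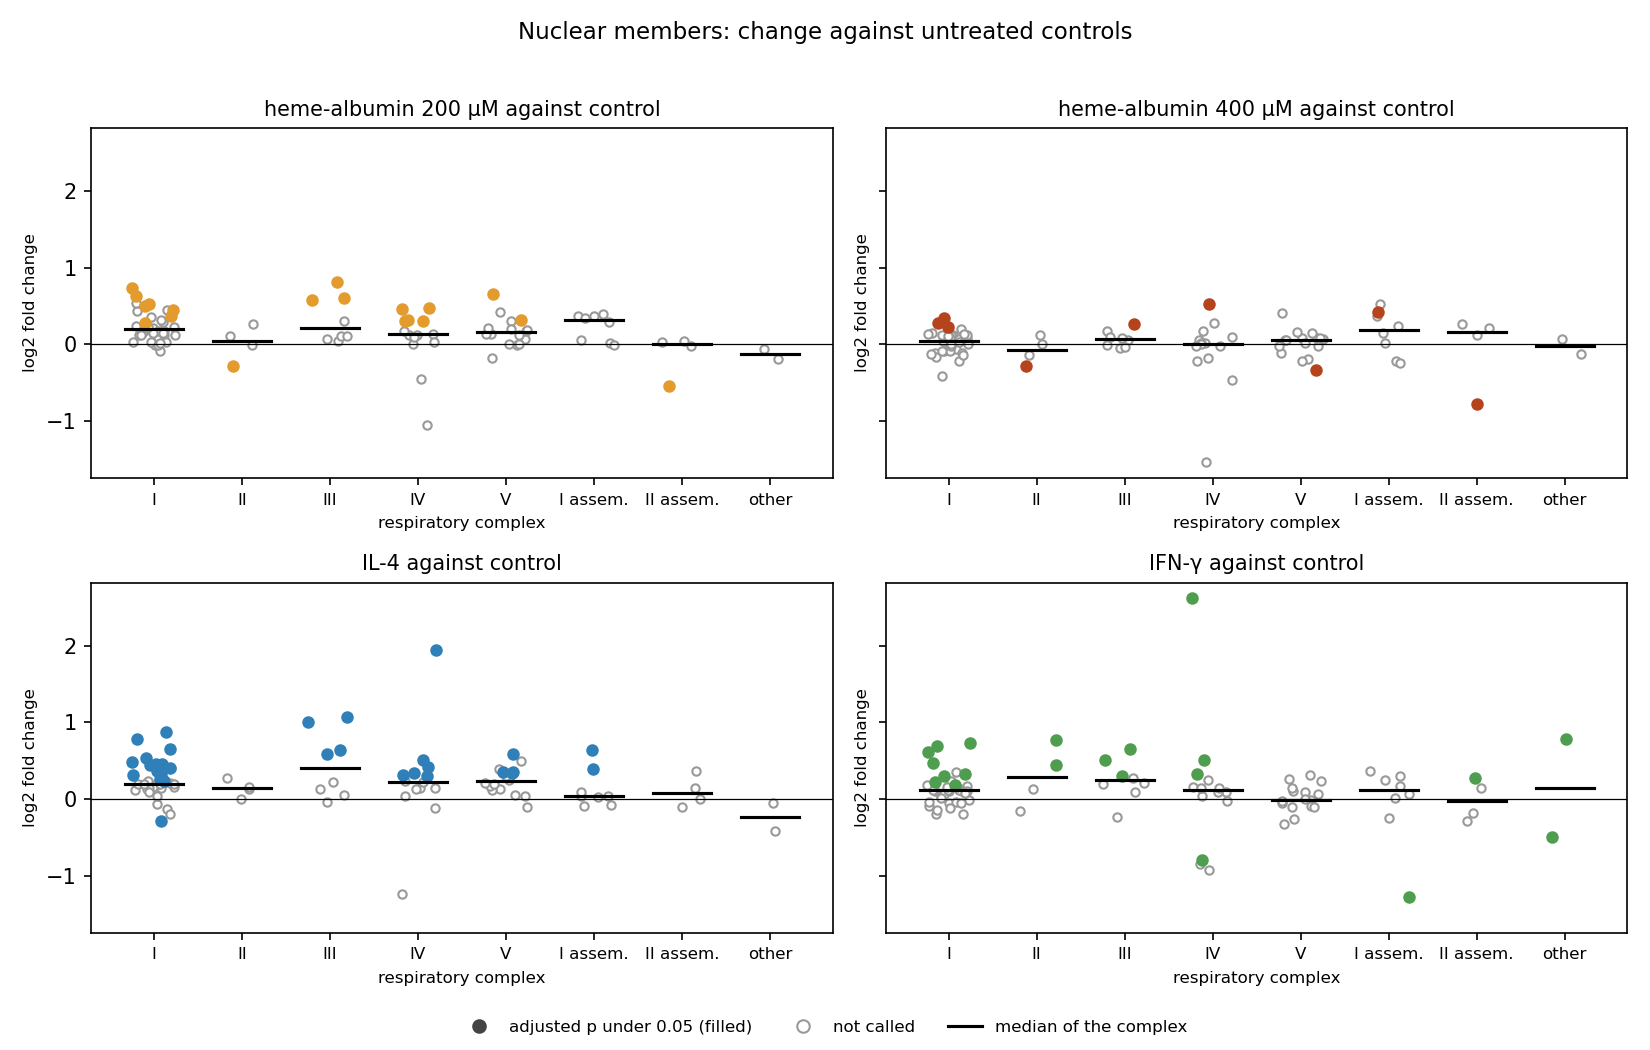
Log2 fold change against control of the 92 nuclear members in 4 panels, 1 per treatment, grouped by complex, complex I and II assembly factors, and the remaining 2 genes. Each point is a gene, filled where the adjusted p was under 0.05, and the horizontal bar is the median. With IL-4 the median of complex III is 0.41, and with IFN-γ no point of complex V is filled.

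Uqcrq (chr11:53427922-53430831, minus strand), a small subunit of complex III near its ubiquinone site, stood at 49.6, 48.3 and 47.4 CPM in controls and 102, 113 and 90.7 CPM with IL-4. The groups did not overlap, and the change was 1.07 ± 0.19 (edgeR adjusted p = 0.000864). Uqcr11 (chr10:80402997-80406830, minus strand), the smallest subunit of the complex, rose from 33.2, 43.1 and 36.0 CPM to 78.2, 79.4 and 67.2 CPM, a change of 1.00 ± 0.24 (adjusted p = 0.00767). Uqcrc1, a core protein of the complex, stood at 120, 130 and 135 CPM in controls and 200, 188 and 193 CPM with IL-4. Its IL-4 libraries lay above all 12 others, with a change of 0.59 ± 0.11 (adjusted p = 0.00116). Uqcr10 rose from 49.0, 50.6 and 44.0 CPM to 79.8, 74.6 and 68.8 CPM, by 0.63 ± 0.14 (adjusted p = 0.00467).

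In complex I, Ndufa13, a membrane-anchored accessory subunit, rose with IL-4 from 51.2, 63.3 and 60.7 CPM to 113, 102 and 106 CPM. Its change was 0.87 ± 0.17 (edgeR adjusted p = 0.0019), with no overlap between the groups. Of the stretches of Ndufa13, 28.5% are shared with other genes, most with Tssk6 on the opposite strand. Ndufv1, which binds NADH, rose by 0.45 ± 0.09 (adjusted p = 0.0019), Ndufb6 by 0.46 ± 0.09 (adjusted p = 0.00213) and Ndufa1 by 0.37 ± 0.08 (adjusted p = 0.00482). Ndufb7 (0.66 ± 0.20, adjusted p = 0.0239) lost its call without control 1, control 3, IL-4 replicate 1 or IL-4 replicate 2 (adjusted p 0.0558 to 0.0937), and Ndufs7 (0.78 ± 0.26, adjusted p = 0.0393) without any 1 of the 6 libraries (0.0625 to 0.154). Ndufa5, a subunit of the matrix arm, was the 1 member called lower. It stood at 30.8, 28.7 and 26.5 CPM in controls and 25.0, 23.3 and 22.5 CPM with IL-4 (-0.28 ± 0.09, adjusted p = 0.0243). The call ended without control 1 (adjusted p = 0.0948), IL-4 replicate 2 (0.0747) or IL-4 replicate 3 (0.0786), and without the filter on low counts (0.0651). With the replicate block the calls of Ndufa7 (adjusted p = 0.0469, with the block 0.0602) and Ndufs1 (adjusted p = 0.0461, with the block 0.0537) were lost. Ndufa7 also lost it without any 1 of the 6 libraries (0.094 to 0.128) and Ndufs1 without any 1 of the 6 but IL-4 replicate 2 (0.117 to 0.181). With the block Atp5s was called lower (adjusted p = 0.0494), so that 2 members were lower.

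In complexes IV and V the rises with IL-4 were modest. Cox8a rose from 98.5, 104 and 95.4 CPM to 137, 135 and 127 CPM, a change of 0.42 ± 0.10 (edgeR adjusted p = 0.00776). Atp5b stood at 804, 788 and 760 CPM in controls and 1061, 952 and 987 CPM with IL-4, with no overlap (0.35 ± 0.10, adjusted p = 0.0196). The call ended without any 1 of the 3 controls, IL-4 replicate 1 or IL-4 replicate 3 (adjusted p 0.0567 to 0.0862). Atp5g3, which encodes the proton-carrying c subunit, changed by 0.36 ± 0.09 (adjusted p = 0.013), a call lost without control 3 (0.0815) or IL-4 replicate 1 (0.0669). Atp5d, the delta subunit, changed by 0.59 ± 0.18 (adjusted p = 0.0249), a call lost without control 1, 2 or 3 or IL-4 replicate 2 or 3 (0.0517 to 0.098).

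None of the 7 mitochondrially encoded members was called with IL-4 by edgeR or DESeq2, and 1 had an unadjusted p under 0.05. Of all 11883 genes 3495 were called by DESeq2 and 4444 had an unadjusted p under 0.05. All 7 changes were positive, from 0.06 to 0.52, with a median of 0.39. Without control 3 or IL-4 replicate 1, 5 were positive (median 0.23 and 0.17), and with the replicate block 6 were. mt-Nd2 stood at 524, 511 and 407 CPM in controls and 725, 574 and 634 CPM with IL-4, which did not overlap, and was called when only these 6 libraries were fitted (adjusted p = 0.0204). Of all genes, 26.8% were called in either direction. The other 6 members overlapped between the groups.

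The counts with IL-4 went with base composition. Split into 3 groups by the GC content of their longest transcript, 17 of the 31 nuclear members of highest GC were called higher with IL-4, against 6 of the 31 of lowest GC. Over all genes in the same GC ranges the shares were 22.8% and 8.59%. With heme-albumin 200 the counts were 9 of 31 and 4 of 31 (all genes 19.6% and 9.47%), and with IFN-γ 11 of 31 and 2 of 31 (all genes 26.2% and 23.0%). The part of GC content in the members' changes was not tested.

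Short promoter motifs of factors known to drive respiratory genes were looked for in the 300 bases from 250 before to 50 after the gene start, on both strands. RefSeq windows (GRCm38.p6) were matched by symbol for 76 of the 92 nuclear members. Some genes had more than 1 window (81 windows for the 76), and a gene was counted if any of its windows held the motif. The palindromic NRF1 motif, printed in capitals in the windows below, stood in 7 of the 76 genes (9.21%), against 1.07% of 27025 genes. The YY1 motif stood in 5 (6.58%, against 0.755%), the ETS motif CCGGAAGT of factors such as GABPA in 5 (6.58%, against 4.31%), the ERRα motif TCAAGGTCA in 2 (2.63%, against 0.466%) and the cAMP response element TGACGTCA in 4 (5.26%, against 2.03%). The antioxidant response element TGACNNNGC stood in 12 (15.8%, against 14.0%). Of the 7 genes with the NRF1 motif, Cox6a1, Ndufa11, Ndufaf4 and Uqcrc1 were called higher with IL-4, and Atp5g2, Atp5k and Ndufaf5 were not. Of all 92 nuclear members 30 were called higher with IL-4, and of all genes 14.9%. A link between the motif and the changes was not tested. The 250 bases before the start are shown for 2 of the former and 1 of the latter, from positions chr5:115348959-115349208 (minus strand), chr17:56717512-56717761 (plus strand) and chr15:102671048-102671297 (minus strand). Capitals mark the NRF1 motif and, in Ndufa11, also the cAMP response element, which lies upstream of it.
Cox6a1: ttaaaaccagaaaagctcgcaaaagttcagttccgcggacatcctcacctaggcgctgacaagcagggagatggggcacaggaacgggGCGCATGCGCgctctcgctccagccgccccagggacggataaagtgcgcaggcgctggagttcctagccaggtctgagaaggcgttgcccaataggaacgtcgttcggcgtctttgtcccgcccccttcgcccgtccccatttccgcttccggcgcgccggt
Ndufa11: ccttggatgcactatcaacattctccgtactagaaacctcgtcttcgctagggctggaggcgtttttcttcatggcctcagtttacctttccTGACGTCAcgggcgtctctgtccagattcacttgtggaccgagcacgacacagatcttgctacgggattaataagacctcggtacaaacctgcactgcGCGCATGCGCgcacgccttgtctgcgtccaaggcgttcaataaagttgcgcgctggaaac
Atp5g2: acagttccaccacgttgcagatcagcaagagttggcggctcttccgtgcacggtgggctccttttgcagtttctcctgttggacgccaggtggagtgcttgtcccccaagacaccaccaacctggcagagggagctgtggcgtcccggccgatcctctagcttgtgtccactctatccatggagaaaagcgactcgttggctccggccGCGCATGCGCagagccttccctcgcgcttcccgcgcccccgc
Cox6a1 stood at 123, 136 and 116 CPM in controls and 177, 186 and 169 CPM with IL-4 (0.51 ± 0.14, edgeR adjusted p = 0.0185), a call lost without control 1 (0.0652), control 3 (0.0787) or IL-4 replicate 2 (0.0628). Ndufa11 changed by 0.48 ± 0.16 (adjusted p = 0.0407), a call lost without any 1 of the 6 libraries (0.0723 to 0.127). Ndufaf4 changed by 0.39 ± 0.13 (adjusted p = 0.0479), a call lost in 11 of 14 alternatives (0.0503 to 0.193), among them leaving out any 1 of the 6 libraries. The rise of Uqcrc1 held in every alternative. Atp5g2 stood at 29.9, 35.1 and 31.8 CPM in controls and 42.2, 42.3 and 42.2 CPM with IL-4, with no overlap, and was not called (0.39 ± 0.18, adjusted p = 0.124). A match in letters is a description of the window and not of binding.

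At 200 µM of heme-albumin, more nuclear members were called higher than lower. Of 92, 17 were called higher, against 14.0% of all genes, and 2 lower, against 9.48% of all genes. The share higher was thus not far above that of all genes, and the share lower was below it. The median change was 0.15, against 0.024 over all genes, and 78 were positive. The count called higher was 6 to 13 when any 1 of the 6 libraries compared was left out (6 without control 1 or control 3, 11 without heme-albumin 200 replicate 1 and 7 without replicate 2). The count called lower was 0 without control 1, control 3 or heme-albumin 200 replicate 2 or 3, and 1 without control 2. The members higher were 7 of 36 in complex I, 3 of 8 in complex III, 5 of 14 in complex IV and 2 of 16 in complex V. Of the 7 mitochondrially encoded members, 0 were called in either direction by edgeR or DESeq2, and 0 had an unadjusted p under 0.05. Of all 11883 genes 3205 were called by DESeq2 and 4311 had an unadjusted p under 0.05.

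Besides Ndufa4, the rises at 200 µM of smallest p were in complex I. Ndufb6 rose from 30.2, 30.7 and 26.0 CPM to 40.1, 42.2 and 41.2 CPM (0.50 ± 0.09, edgeR adjusted p = 0.00155). Of its stretches 31.6% are shared with other genes, most with Smim27 on the opposite strand. Ndufa8, a subunit on the intermembrane side, stood at 62.6, 65.8 and 69.7 CPM in controls and 95.2, 98.7 and 90.6 CPM at 200 µM. Its 200 µM libraries lay above all 12 others, with a change of 0.52 ± 0.10 (adjusted p = 0.00165). Ndufv1 rose by 0.45 ± 0.09 (adjusted p = 0.00244), and in complex III Uqcr10 rose from 49.0, 50.6 and 44.0 CPM to 74.9, 69.5 and 74.3 CPM, by 0.61 ± 0.14 (adjusted p = 0.00779).

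Other large changes at 200 µM lost their calls when single libraries were left out. Uqcr11 stood at 62.3, 72.2 and 62.9 CPM (0.81 ± 0.24, edgeR adjusted p = 0.0274), a call lost without control 1 or 3 or any 1 of the heme-albumin 200 libraries (0.0512 to 0.109). Ndufb7 (0.74 ± 0.20, adjusted p = 0.0162) and Atp5d (0.66 ± 0.18, adjusted p = 0.0168) lost the call without control 1, control 3 or heme-albumin 200 replicate 2 (0.0583 to 0.0727 and 0.0519 to 0.0774). Ndufa13 (0.63 ± 0.17, adjusted p = 0.0167) lost it without control 1, heme-albumin 200 replicate 1 or replicate 2 (0.0534 to 0.0861). Uqcrq stood at 64.8, 93.4 and 60.2 CPM at 200 µM, replicate 2 being the high library, and its call (0.59 ± 0.19, adjusted p = 0.0377) ended without any 1 of the 3 controls or heme-albumin 200 replicate 2 (0.0971 to 0.205).

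In complex II, the flavoprotein fell with heme-albumin. Sdha (chr13:74322254-74350280, minus strand) was at 242, 239 and 251 CPM in controls, 211, 186 and 207 CPM at 200 µM and 191, 199 and 214 CPM at 400 µM. All 6 heme-albumin libraries lay below all 9 others. The changes were -0.28 ± 0.08 at 200 µM (edgeR adjusted p = 0.0269) and -0.28 ± 0.08 at 400 µM (adjusted p = 0.0258). The first call was lost without control 1, control 3, heme-albumin 200 replicate 2 or replicate 3 (0.051 to 0.126) and without the filter on low counts (0.0626). The second was lost without control 1, control 3, heme-albumin 400 replicate 1 or replicate 2 (0.0581 to 0.0771) and with only the 6 libraries compared (0.0588). Sdhb, Sdhc and Sdhd were not called at either dose.

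Sdhaf1 (chr7:30321406-30323895, minus strand), a factor that helps Sdhb receive its iron-sulfur clusters, stood at 9.85, 8.41 and 9.57 CPM in controls, 7.87, 5.07 and 6.05 CPM at 200 µM and 6.57, 4.08 and 5.50 CPM at 400 µM. The heme-albumin libraries lay below the controls. It fell by -0.78 ± 0.19 at 400 µM (edgeR adjusted p = 0.00799), a call that held in every alternative, and by -0.54 ± 0.18 at 200 µM (adjusted p = 0.0457), a call lost in 6 of 14 alternatives (0.0506 to 0.192), among them leaving out any 1 of the 3 controls or heme-albumin 200 replicate 2 or 3. Of its stretches 69.0% are shared, most with the gene E130208F15Rik on the opposite strand, and the strand setting of the counting is unknown here.

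At 400 µM, 6 of 92 nuclear members were higher, against 14.7% of all genes, and 3 lower, against 10.8% of all genes, both shares below those of all genes. The median change was 0.05, against 0.0085 over all genes. The higher count was 1 to 5 when 1 of the 6 libraries was left out, with 1 without control 3, 2 without control 1 or heme-albumin 400 replicate 3 and 3 without control 2, and 2 with no filter or with only the 6 libraries. The lower count was 1 without control 1 or heme-albumin 400 replicate 2. Apart from Ndufa4, the rise of smallest p was Ndufb6 at 37.6, 35.9 and 37.0 CPM (0.34 ± 0.09, edgeR adjusted p = 0.015; 0.0719 without control 3). Atp5o, which joins the stalk and head of ATP synthase, stood at 145, 144 and 128 CPM in controls and 114, 101 and 115 CPM at 400 µM, with no overlap. Its change was -0.34 ± 0.10 (adjusted p = 0.028), and the call ended without control 1 (0.0872), control 2 (0.0751) or heme-albumin 400 replicate 2 (0.0971). Of the 7 mitochondrially encoded members, 0 were called in either direction by edgeR or DESeq2 and 0 had an unadjusted p under 0.05, where 3370 of all 11883 genes were called by DESeq2 and 4472 had an unadjusted p under 0.05.

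The doses were also compared with each other. No nuclear or mitochondrially encoded member was called by edgeR or DESeq2, and of all 11883 genes 0 (0%) were called by edgeR in either direction and 13 by DESeq2. An unadjusted p under 0.05 was found for 25 of 92 nuclear members and 0 of 7 mitochondrially encoded ones, and for 1796 of all 11883 genes. Of the 92 changes 75 were negative, lower at 400 µM, with a median of -0.14 against 0.0046 over all genes. All 16 complex V subunits were negative, as were 32 of 36 in complex I. Heme-albumin 400 replicate 2, which stood apart from its group, was the lowest of the 3 for many subunits: Uqcr11 stood at 58.2, 23.0 and 45.1 CPM and Ndufb7 at 61.9, 32.0 and 44.6 CPM at 400 µM. Without that library the median was -0.11 and 79 of 92 were negative, and across all alternatives the median ran from -0.16 to -0.10. The shift went with base composition in all genes: the group of highest GC had a median of -0.32 among members and -0.20 among all genes, and the group of lowest GC -0.02 and 0.14. Its part in the members' shift was not tested.

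IL-4 and IFN-γ were compared directly, and several mitochondrially encoded and ATP synthase genes were higher with IL-4. Of the 7 mitochondrially encoded members 4 were called higher and 0 lower, where 24.3% of all genes were higher and 26.3% lower. mt-Cytb stood at 1376, 884 and 930 CPM with IL-4 against 529, 249 and 406 CPM with IFN-γ (1.43 ± 0.29, edgeR adjusted p = 0.00112). The changes of mt-Nd1 (1.18 ± 0.18, adjusted p = 0.000109) and mt-Nd2 (1.14 ± 0.18, adjusted p = 0.000157) were of like size. mt-Nd4 stood at 472, 303 and 330 CPM with IL-4 and 225, 116 and 194 CPM with IFN-γ (1.05 ± 0.29, adjusted p = 0.00777). None of these 4 overlapped between the cytokines. mt-Nd5 was called with the replicate block (adjusted p = 0.0382) and without IFN-γ replicate 1 (adjusted p = 0.0191), and mt-Co1 changed by -0.18.

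Of the 92 nuclear members, 23 were higher and 7 lower with IL-4 than with IFN-γ, where 24.3% of all genes were higher and 26.3% lower. The share higher was thus close to that of all genes and the share lower was below it. The median was 0.14 against -0.0061 over all genes. With upper-quartile factors, which shifted the median of all genes by 0.088, 39 were higher. Without IL-4 replicate 1 or 2 the count was 15. The shares of all genes called higher in these fits were not counted. Complex V had 6 of 16 subunits higher and 0 lower. Among these, Atp5g1, which encodes the same c subunit as Atp5g3, stood at 82.7, 86.9 and 78.7 CPM with IL-4 and 57.6, 57.3 and 46.0 CPM with IFN-γ, on either side of the controls at 67.1, 64.4 and 69.8 CPM. The IL-4 and IFN-γ libraries did not overlap (0.62 ± 0.13, edgeR adjusted p = 0.00115), while neither cytokine was called against control (adjusted p = 0.0989 and 0.0568). Atp5g3 differed by 0.36 ± 0.09 (adjusted p = 0.00663), Atp5a1, the alpha subunit, by 0.35 ± 0.10 (adjusted p = 0.00917) and Atp5j2 by 0.42 ± 0.10 (adjusted p = 0.00342).

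The other nuclear genes that set the cytokines apart came from several complexes. Ndufa4 (0.92 ± 0.09, edgeR adjusted p = 1.21e-06), Ndufaf7 (1.20 ± 0.18, adjusted p = 0.00012), Ndufb11 (0.51 ± 0.10, adjusted p = 0.000957) and Uqcrc1 (0.50 ± 0.11, adjusted p = 0.00167) were higher with IL-4. Uqcr11 was higher by 0.79 ± 0.24 (adjusted p = 0.0144; 0.0522 without IFN-γ replicate 1) and Sdhaf1 by 0.54 ± 0.17 (adjusted p = 0.0184; 0.0522 without IL-4 replicate 2 and 0.0546 without IFN-γ replicate 2). Higher with IFN-γ were Cox7a2l (-0.84 ± 0.11, adjusted p = 2.17e-05), Ndufs3 (-0.53 ± 0.11, adjusted p = 0.00182), Sdhb (-0.49 ± 0.12, adjusted p = 0.00344), Ndufa5 (-0.41 ± 0.08, adjusted p = 0.00127), Ndufs4 (-0.37 ± 0.09, adjusted p = 0.00471) and Sdhd (-0.29 ± 0.09, adjusted p = 0.0117). The Sdhd call ended without IFN-γ replicate 3 (0.0538) or with only the 6 libraries compared (0.0569). Ndufv2 (0.18, adjusted p = 0.0488) lost its call under the replicate block (0.0513) and without any 1 of the 3 IL-4 libraries, IFN-γ replicate 2 or replicate 3 (0.0516 to 0.172).

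Several subunits exist as pairs of a general and a tissue-restricted form, and the macrophages held mainly the general ones. Cox6a1 stood at 116 to 136 CPM in controls, against 1.22, 0.605 and 1.07 CPM for Cox6a2, the form known from heart and skeletal muscle. Cox6a2 was nevertheless higher with both cytokines, at 5.02, 2.75 and 3.30 CPM with IL-4 and 3.87, 9.92 and 3.72 CPM with IFN-γ. Neither group overlapped the controls. The changes were 2.62 ± 0.67 with IFN-γ (edgeR adjusted p = 0.00677) and 1.94 ± 0.67 with IL-4 (adjusted p = 0.0464), the latter lost with upper-quartile factors (0.0524) and without any 1 of the 6 libraries (0.0623 to 0.169). Under the filter of 5 CPM in 3 libraries the gene was not tested. Its exons overlap those of the antisense gene Itgad, and 3.3% of its stretches are shared. Cox7a2 stood at 91.6 to 105 CPM in controls and was not called in any of the 6 comparisons, while its muscle form Cox7a1 stood at 3.77, 2.66 and 2.47 CPM. At 400 µM Cox7a1 was at 2.19, 0 and 0.865 CPM (-1.54 ± 0.59, adjusted p = 0.0746), and it was called lower by DESeq2 (0.0193), under the replicate block (0.0388) and without heme-albumin 400 replicate 1 (0.0124). Cox6b1 was at 165 to 190 CPM in controls and Cox6b2, known from testis, at 0.860 to 1.15 CPM. Cox4i1 was at 253 to 289 CPM in controls, while Cox4i2 passed 10 counts in 2 libraries only. Cox8b, Cox8c and Cox7b2 had 0 counts. Cox6b2, Cox6a2 and Cox7a1 were the members nearest the count threshold, with at least 10 counts in 9, 11 and 14 libraries.

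Genes of the same pathway outside the name prefixes were described from 8 lists. Their counts called higher and lower stand against 24.1% and 19.5% of all genes with IFN-γ, 14.9% and 12.0% with IL-4, 14.0% and 9.48% at 200 µM, and 14.7% and 10.8% at 400 µM. Of 22 electron carriers and other subunits tested, 7 were higher and 4 lower with IFN-γ, 6 and 0 with IL-4, 7 and 1 at 200 µM, and 4 and 1 at 400 µM. The median change was 0.09, 0.11, 0.08 and 0.08 in that order, where the median of all genes was 0.051, -0.0004, 0.024 and 0.0085. The counts with IFN-γ were near the all-gene shares. Atpif1, the inhibitor of ATP synthase, stood at 138 to 150 CPM in controls and 232 to 270 CPM with heme-albumin. It rose by 0.82 ± 0.08 at 200 µM (edgeR adjusted p = 1.59e-05) and 0.71 ± 0.08 at 400 µM (adjusted p = 5.1e-05), and it fell by -0.39 ± 0.08 with IFN-γ (adjusted p = 0.00227). Cycs, the cytochrome c that carries electrons to complex IV, rose by 0.77 ± 0.09 with IFN-γ (adjusted p = 1.83e-05), and Cyc1, the cytochrome of complex III, by 0.44 ± 0.08 with IL-4 (adjusted p = 0.00101). The electron transfer flavoprotein subunits Etfa and Etfb rose with IL-4 by 0.41 ± 0.10 (adjusted p = 0.00695) and 0.61 ± 0.10 (adjusted p = 0.000733). With IFN-γ Etfb fell by -0.53 ± 0.11 (adjusted p = 0.00148) and Etfa by -0.36 ± 0.10 (adjusted p = 0.0114; 0.0658 with only the 6 libraries compared).

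Of 36 assembly factors outside the prefixes, 8 were higher and 4 lower with IFN-γ, 4 and 1 with IL-4, 6 and 1 at 200 µM, and 2 and 3 at 400 µM. With IFN-γ and IL-4 the shares called higher were at or below those of all genes (24.1% and 14.9%), and the list's medians were 0.18 and 0.10. Coa5, a complex IV assembly factor, stood at 151 to 171 CPM in controls and 500 to 576 CPM with IFN-γ, a change of 1.74 ± 0.13 (edgeR adjusted p = 2.22e-07). Sco1, which delivers copper to complex IV, rose with IFN-γ by 0.99 ± 0.14 (adjusted p = 8.57e-05). The copper chaperone Cox17 rose by 0.83 ± 0.20 with IFN-γ (adjusted p = 0.0049) and 0.82 ± 0.20 with IL-4 (adjusted p = 0.00836). Lyrm4, a partner of the iron-sulfur cluster assembly enzyme, rose by 1.36 ± 0.14 at 400 µM (adjusted p = 1.82e-05) and 1.20 ± 0.14 at 200 µM (adjusted p = 4.36e-05).

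Among regulators of mitochondrial biogenesis, 4 of 12 tested were higher and 0 lower with IL-4, and 4 higher and 2 lower with IFN-γ. Over all genes 14.9% were higher and 12.0% lower with IL-4, and 24.1% higher and 19.5% lower with IFN-γ. The list's medians were 0.20 and 0.16. The coactivator Ppargc1a had 0 counts in every library. Its relative Ppargc1b stood at 1.60, 1.57 and 2.15 CPM in controls, 8.39, 6.04 and 6.18 CPM with IL-4 and 8.67, 9.52 and 12.0 CPM with IFN-γ. Both cytokines lay above all other libraries, with changes of 1.97 ± 0.27 (edgeR adjusted p = 0.000144) and 2.52 ± 0.28 (adjusted p = 1.08e-05). Esrra, the orphan receptor ERRα, rose by 0.80 ± 0.20 with IFN-γ (adjusted p = 0.00666). Nrf1 fell at 400 µM by -0.46 ± 0.11 (adjusted p = 0.00813), and Tfam, which packages and transcribes mitochondrial DNA, was not called against control in any treatment. Polrmt, the mitochondrial RNA polymerase, rose with IL-4 by 0.84 ± 0.17 (adjusted p = 0.0027).

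Of 26 genes of mitochondrial DNA and RNA handling, 4 were higher and 3 lower with IFN-γ, 3 and 2 with IL-4, 3 and 0 at 200 µM, and 5 and 0 at 400 µM. Both shares with IFN-γ were below those of all genes (24.1% and 19.5%), as was the share higher with IL-4 (14.9%), and the list's medians were -0.02 with each cytokine, 0.12 at 200 µM and 0.15 at 400 µM. Slirp, which stabilises mitochondrial mRNAs, rose with IFN-γ by 0.59 ± 0.11 (edgeR adjusted p = 0.00069), at 200 µM by 0.74 ± 0.11 (adjusted p = 0.000273) and at 400 µM by 0.73 ± 0.11 (adjusted p = 0.000273). Of 22 protein import genes, 7 were higher and 0 lower with IL-4, 0 and 4 with IFN-γ, 5 and 0 at 200 µM, and 3 and 1 at 400 µM. Over all genes 14.9% were higher with IL-4, the share lower with IFN-γ was near the 19.5% of all genes, and the share higher at 400 µM was near the 14.7% of all genes. The list's median was 0.25 with IL-4 and -0.06 with IFN-γ. Timm17b, a channel subunit, fell with IFN-γ by -0.75 ± 0.15 (adjusted p = 0.00174), and Timm13, a carrier of the intermembrane space, rose with IL-4 by 0.77 ± 0.17 (adjusted p = 0.00419).

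Of 13 genes induced by hypoxia-inducible factor, 5 were higher and 1 lower with IFN-γ, 2 and 3 with IL-4, 3 and 0 at 200 µM, and 2 and 1 at 400 µM. The share higher with IL-4 was near the 14.9% of all genes, 24.1% of all genes were higher with IFN-γ, and the list's medians were -0.20 with IL-4 and 0.22 with IFN-γ. Vegfa rose with IFN-γ by 3.07 ± 0.55 (edgeR adjusted p = 0.000595) and the glucose transporter Slc2a1 by 1.04 ± 0.14 (adjusted p = 5.81e-05), while Pdk1, a kinase that holds back pyruvate oxidation, fell with IL-4 by -1.29 ± 0.23 (adjusted p = 0.000862). Of 14 antioxidant and uncoupling genes, 2 were higher and 3 lower with IFN-γ, 2 and 0 with IL-4, 3 and 0 at 200 µM, and 0 and 2 at 400 µM. The share lower with IFN-γ was near the 19.5% of all genes and the share higher with IL-4 near the 14.9%. Prdx5, a peroxidase, rose with IFN-γ by 1.87 ± 0.30 (adjusted p = 0.000245) and Txnrd2, the mitochondrial thioredoxin reductase, fell by -0.81 ± 0.11 (adjusted p = 8.75e-05). Of 19 genes of mitochondrial turnover, 4 were higher and 1 lower with IFN-γ, 5 and 0 with IL-4, and 3 and 0 at each heme-albumin dose. The shares higher with IFN-γ and with heme-albumin were near those of all genes (24.1%, and 14.0% and 14.7%), and 14.9% of all genes were higher with IL-4. Sqstm1, an autophagy receptor, rose by 1.92 ± 0.26 at 200 µM (adjusted p = 0.000168) and 2.05 ± 0.26 at 400 µM (adjusted p = 9.22e-05).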

How the data were processed

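The authors deposited 1 table of raw counts per gene for 15 libraries of a stranded TruSeq kit, per the labels' protocols. The submitters' processing notes name STAR 2.7.0e, SAMtools 1.9, featureCounts and GRCm38.p5. The annotation, strand setting and treatment of multi-mapping reads were not given in the sources used. The treatment tag of 2 higher-dose libraries departs slightly from the titles' 400 µM, which was used. Symbols of 25664 of 25700 identifiers came from GENCODE M21 (GRCm38). Counts were fitted with edgeR 4.0.16 in R 4.3.3: filterByExpr (11883 genes left), TMM scaling, and 1 quasi-likelihood model of all 15 libraries with a mean per group, in 6 comparisons. P-values were adjusted over all genes of a comparison (Benjamini-Hochberg, threshold 0.05), changes are log2 fold changes ± SE, levels are TMM-scaled CPM, and levels per kb divide by the union of a gene's annotated exons. Shared stretches were read from the annotated transcripts on both strands, so overlaps with genes on the opposite strand count as shared.

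The columns carry 3 dates, 1 per replicate number, so libraries of 1 number share a date; what the date stands for is unknown. The block on the number is therefore an alternative and not the fit reported. In 30 same-number pairs the median correlation of deviations from the group means was 0.144 (-0.168 to 0.474; over 0.1 in 19), against -0.0688 in 60 others, and the best match of 14 of 15 libraries had their own number. Tested on simulated counts of IL-4 against control (11883 genes), edgeR called 0 of 50 genes with a 1.25-fold change, 7 of 50 with 1.5-fold, 31 of 50 with 2-fold and 44 of 50 with 4-fold, and 3 of its 85 calls were false. Alternatives were a fit by DESeq2 1.42.0, edgeR with the size factors of DESeq2, edgeR with upper-quartile factors, scaling without mitochondrial genes, no filter, 5 CPM in 3 libraries, only the libraries compared, a replicate block, and leaving out libraries.

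The members, lists and tests were chosen with earlier results of these data known. Members were named by rule: all mitochondrially encoded ones, the 6 largest called rises and falls of each comparison, the smallest p of each complex, complex II, the isoform families, those nearest the threshold and the 3 highest, with up to 4 genes of smallest p from each list and 7 regulators. Not all that the rule takes are described.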

Additional observations from a re-analysis of the deposited data

How the results depend on the processing

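Of 117 calls of members over the 6 comparisons, 48 held in every alternative run, none changed sign, and 66 others were gained in at least 1 alternative. The replicate block changed no calls but those given above and these gains: Cox7b at 400 µM (adjusted p = 0.0426), Ndufa1 at 200 µM (0.0477), Atp5j2 (0.0405) and Cox5b (0.0254) with IFN-γ, and Atp5o (0.0444) and Ndufb4 (0.0462) between IL-4 and IFN-γ. Nuclear members called higher numbered 6 at 400 µM, 2 without the filter, 2 with only the 6 libraries compared and 1 to 5 with 1 library left out, and those lower 3, and 1 to 3 with 1 left out. At 200 µM 17 were higher (6 to 13 with 1 library left out) and 2 lower (0 without the filter, 0 to 2 with 1 left out). With IL-4 30 were higher (9 to 18 with 1 left out) and 1 lower (0 without the filter, 2 with only the 6 libraries, 2 with the replicate block, 0 to 1 with 1 left out), and of the mitochondrially encoded 0 were higher (1 with only the 6 libraries). With IFN-γ 18 were higher (10 with upper-quartile factors, 9 with only the 6 libraries, 11 to 21 with 1 left out) and 3 lower (5 with DESeq2 size factors, 10 with upper-quartile factors, 7 with DESeq2, 3 to 4 with 1 left out), and 3 mitochondrially encoded members were lower (2 to 3 with 1 left out). Between IL-4 and IFN-γ 23 were higher (39 with upper-quartile factors, 15 to 23 with 1 left out), 7 lower (5 to 6), and 4 mitochondrially encoded higher (4 to 5). Leaving out a library lowers the number of samples. The cause of the other shifts was not tested. The shares of all genes called higher and lower were not counted under the alternatives, so these counts have no such share beside them. In simulated counts of IL-4 against control 7 of 50 genes changed 1.5-fold and 31 of 50 changed 2-fold were called. A member not called may thus still have changed. By how much cannot be read from the simulation, which took genes of any level. It gave 85 calls, against 3190 in the data, so its threshold was stricter. The median SE with IL-4 was 0.11 for nuclear and 0.28 for mitochondrially encoded members.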
